A study of Homo sapiens with 6 samples.

Results

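The genes described here are the hypoxia-inducible factors, the proteins that degrade them and a group of their targets outside glycolysis. They comprise 10 genes of the 27605 in the deposited table, chosen by symbol: HIF1A, EPAS1, VHL, EGLN1, EGLN3, BNIP3, NDRG1, ANKRD37, ADM and KDM3A. All 10 were found once each, and all 10 passed the filter on low values. RNA was sequenced from HepG2, a hepatoma carcinoma cell line, infected with lentivirus carrying a control hairpin (shNC, 3 libraries, genotype WT in the labels) or a hairpin against ARHGEF2 (shARHGEF2, 3 libraries). ARHGEF2 is a guanine nucleotide exchange factor for the GTPase RHOA. The shARHGEF2 libraries carry the genotype ARHGEF2 knockdown. Cells of both groups grew in DMEM with serum, and no treatment with low oxygen is named in the labels. The time after infection is not given, nor is it stated whether the 3 libraries of a group came from separate cultures or carried the same hairpin, so p-values measure only the spread between these libraries.

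The hypoxia-inducible factors are pairs of an oxygen-sensitive alpha subunit, encoded by HIF1A or EPAS1, and a stable partner such as ARNT. When oxygen is present, prolyl hydroxylases encoded by the EGLN genes modify the alpha subunit, VHL then binds it, and it is degraded. When oxygen falls, the subunit persists and activates genes that carry its binding motif, among them EGLN3 and other members of the feedback that limits the response. This control acts largely on protein, which RNA sequencing does not measure.

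Values are FPKM, that is, fragment counts scaled by transcript length and by sequencing depth. Changes are on log2(FPKM + 1), shARHGEF2 minus shNC, from limma over the 12291 genes whose 6 libraries averaged 0.5 FPKM or more. Genes with an adjusted p under 0.05 are referred to as called. The added 1 understates the change of genes near 1 FPKM. Depth was estimated from the steps between low values at 20190000 to 23350000 read pairs per library. ARHGEF2, the target of the hairpin, fell from 13.8 ± 0.70 to 4.36 ± 0.417 FPKM (SD, n = 3 each, log2 fold change -1.47, adjusted p = 0.00244 in limma). The labelled cell type was checked against its defining markers, most of which were absent. Of 18 hepatocyte genes, 8 were looked up by symbol and not found, among them ALB, APOB and TTR. Of the 10 that were found, only VTN averaged 1 FPKM or more. RBP4 reached 0.907 FPKM in its highest library. The other 8 that were found, among them AFP, SERPINA1 and HNF4A, stayed at or under 0.248 FPKM. The summed level of this list was 6.02 to 6.22 FPKM in shNC and 6.67 to 7.65 FPKM in shARHGEF2 cells. The epithelial keratins KRT8, KRT18 and KRT19 lay between 60.4 and 216 FPKM, while EPCAM and CDH1 did not exceed 0.0547 FPKM. Fibroblast markers summed to 39.8 to 52.7 FPKM in shNC and 38.7 to 45.6 FPKM in shARHGEF2 cells, most of it LUM at 22.5 to 39.0 FPKM. COL1A1, COL3A1 and DCN lay between 1.56 and 9.60 FPKM, while COL1A2 and PDGFRB did not exceed 0.0453 and 0.673 FPKM. The sums of endothelial markers were 0.591 to 0.670 and 0.801 to 0.904 FPKM, and those of leukocyte markers were 0.103 to 0.198 and 0.177 to 0.284 FPKM. The hepatocyte markers do not bear out the label of a hepatoma line, and the reason was not tested. The part of all these marker lists in the results was not tested either. In bulk RNA, fewer cells of a type and less RNA per cell cannot be told apart.

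Among the 10 genes, the levels of the factors and their degradation machinery overlapped between the groups. Overlap was also found for the target KDM3A, and EGLN3, part of that machinery, is a HIF target as well. The other 4 targets, NDRG1, ANKRD37, ADM and BNIP3, lay lower in every shARHGEF2 library than in any shNC library. With adjustment over all genes, limma called 0 of the 10 genes, beside 0.277% of all genes tested (0.0814% lower and 0.195% higher). At an unadjusted p under 0.05 the 4 targets passed, all of them lower, beside 5.55% of all genes tested that passed in that direction. Non-overlap with shARHGEF2 lower was likewise found for these 4 genes, and for 9.17% of all genes tested (20.5% with either direction counted). Fitted changes were below 0 for 9 of the 10 genes, with a median of -0.20, against 50.4% and a median of 0.00 over all genes tested. The 10 genes were chosen with earlier results of these data known, so these shares only describe them. None of the 10 genes was called under any of 13 alternatives of the processing.

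**Figure D1:**
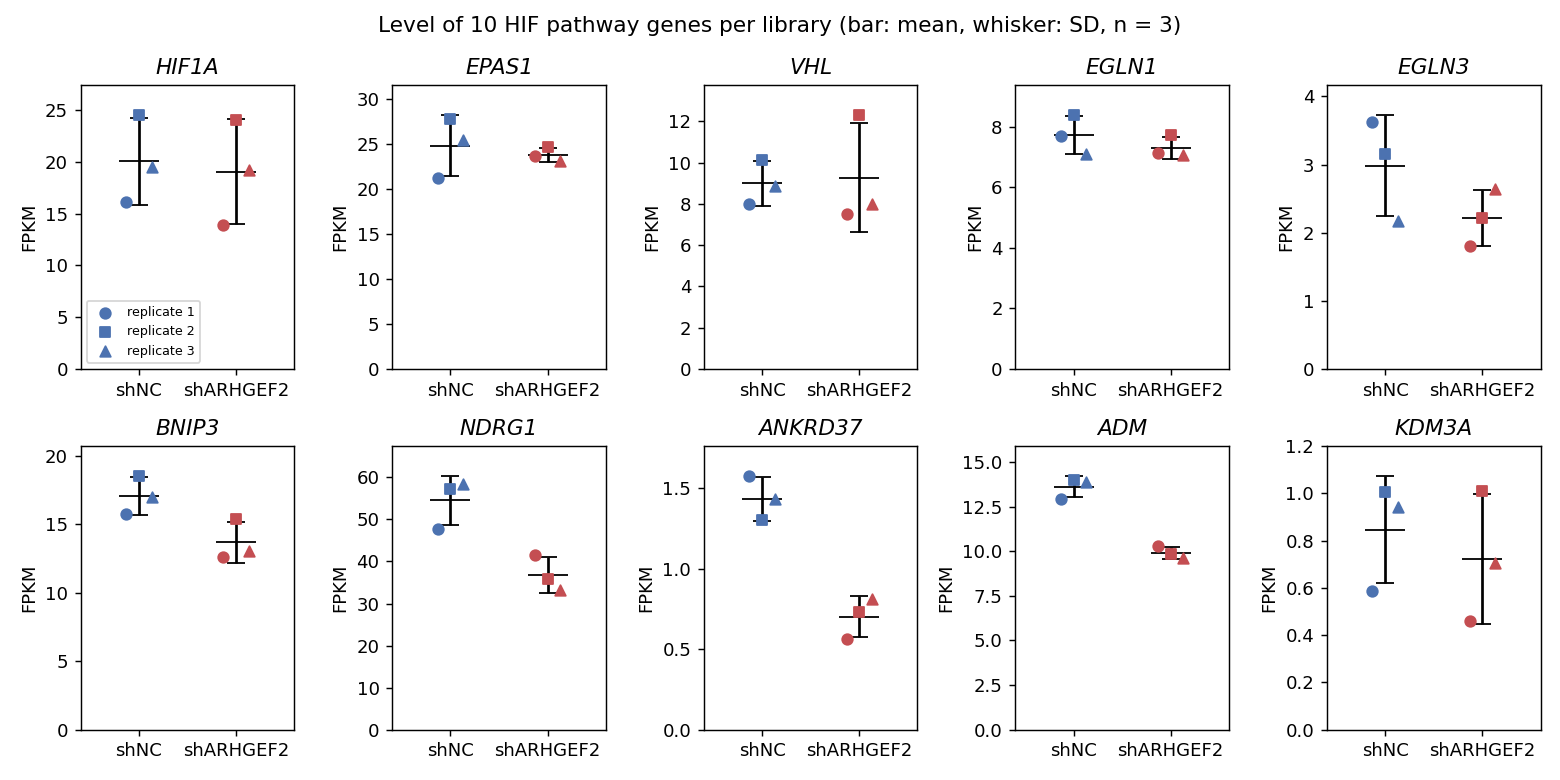
Level in FPKM (vertical axis, from 0) of each of the 10 genes in the 3 shNC and 3 shARHGEF2 libraries, with marker shapes for replicate numbers, a bar for the mean and a whisker for the SD. The groups separate for BNIP3, NDRG1, ANKRD37 and ADM, and overlap in the other 6 panels.

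The promoters of 3 of the separating targets, and that of EPAS1 as a factor whose groups overlapped, are shown because the targets are held to be switched on through a short HIF motif near their start. The core of that motif was searched as ACGTG and GCGTG on both strands in the 250 bases before the transcription start (RefSeq, GRCh38.p14). These starts differ from the ends of the GENCODE gene spans given below. The windows of ANKRD37, ADM and EPAS1 lie inside those spans, and the window of BNIP3 lies partly inside. Of the 10 genes, 8 had a window, and VHL and NDRG1 had none in the table. Capitals mark the matches, and each sequence runs 5′ to 3′ on the strand of its gene. BNIP3 lies on the minus strand at chr10:131981924-131982173, ANKRD37 on the plus strand at chr4:185396591-185396840, ADM on the plus strand at chr11:10304823-10305072 and EPAS1 on the plus strand at chr2:46297157-46297406.
BNIP3: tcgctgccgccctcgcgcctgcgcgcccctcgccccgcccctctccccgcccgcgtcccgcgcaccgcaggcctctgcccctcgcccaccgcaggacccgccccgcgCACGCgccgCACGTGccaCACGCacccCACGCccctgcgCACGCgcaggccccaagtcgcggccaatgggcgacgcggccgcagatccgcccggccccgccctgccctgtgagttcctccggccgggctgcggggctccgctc
ANKRD37: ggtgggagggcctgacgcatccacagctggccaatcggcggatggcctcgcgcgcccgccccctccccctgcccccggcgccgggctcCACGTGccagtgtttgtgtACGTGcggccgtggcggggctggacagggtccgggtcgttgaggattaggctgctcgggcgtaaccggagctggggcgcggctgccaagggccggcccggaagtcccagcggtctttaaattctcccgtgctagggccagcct
ADM: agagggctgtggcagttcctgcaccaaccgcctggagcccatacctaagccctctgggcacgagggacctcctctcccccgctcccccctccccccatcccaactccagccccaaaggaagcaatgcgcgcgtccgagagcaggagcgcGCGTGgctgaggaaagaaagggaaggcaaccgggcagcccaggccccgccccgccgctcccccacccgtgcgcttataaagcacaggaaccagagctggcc
EPAS1: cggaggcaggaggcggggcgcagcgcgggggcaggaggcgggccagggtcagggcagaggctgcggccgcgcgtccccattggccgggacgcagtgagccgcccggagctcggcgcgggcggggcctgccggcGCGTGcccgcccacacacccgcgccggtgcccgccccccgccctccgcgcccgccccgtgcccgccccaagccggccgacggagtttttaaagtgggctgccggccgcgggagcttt
BNIP3 had 6 matches, between positions -143 and -100 relative to the start, with a CACGTG palindrome that counts as 1 match on each strand. ANKRD37 had 3 matches, of which 2 are the strands of another CACGTG, from position -162 to -157, and 1 is an ACGTG ending at -139. ADM and EPAS1 held 1 GCGTG each. In the first window listed for each gene, 7 of the 8 genes with a window had a match, EGLN3 being the exception, against 43.1% of 27305 promoter windows of this length. These windows are rich in G and C, and of the 10603 windows with at least 62.4% GC, 60.6% held a match, 14.6% held 3 or more and 1.4% held 6 or more. That floor is the GC share of the KDM3A window, the lowest among the first windows of the 8 genes. The windows of BNIP3 and ANKRD37 have 81.6% and 71.6% GC, and shares among windows as GC-rich as these were not computed. A match is a description of letters, not a binding site.

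The oxygen-sensitive subunits were examined first. HIF1A (ENSG00000100644, chromosome 14, GRCh38 61695513 to 61748259, plus strand) had 16.1, 24.5 and 19.5 FPKM in shNC replicates 1 to 3 and 13.9, 24.0 and 19.2 FPKM in shARHGEF2 replicates 1 to 3. Within each group the spread was larger than the difference between the means of 20.04 ± 4.21 and 19.1 ± 5.07 FPKM (SD, n = 3 each). Its log2 fold change was -0.08 (standard error 0.21, 95% interval -0.57 to 0.41, adjusted p = 0.915 in limma). The sign turned to 0.07 without shNC replicate 2 and to 0.12 without shARHGEF2 replicate 1.

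HIF1A varied between libraries of the same group. In both groups the library numbered 2 was the highest and that numbered 1 the lowest. The transcripts of HIF1A average 40.0% GC, and 6.8% of the genes tested have less. Over the 2447 tested genes with at most 43.9% GC, the median log2 level relative to the mean of the 6 libraries was -0.11, 0.18 and -0.03 in shNC replicates 1 to 3 and -0.19, 0.14 and 0.02 in shARHGEF2 replicates 1 to 3. On the same scale HIF1A stood at -0.24, 0.34 and 0.02 and at -0.44, 0.31 and 0.00. With a GC trend removed from each library, an alternative chosen after seeing the data, the standard error of HIF1A was 0.12 and its log2 fold change was -0.06.

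**Figure D2:**
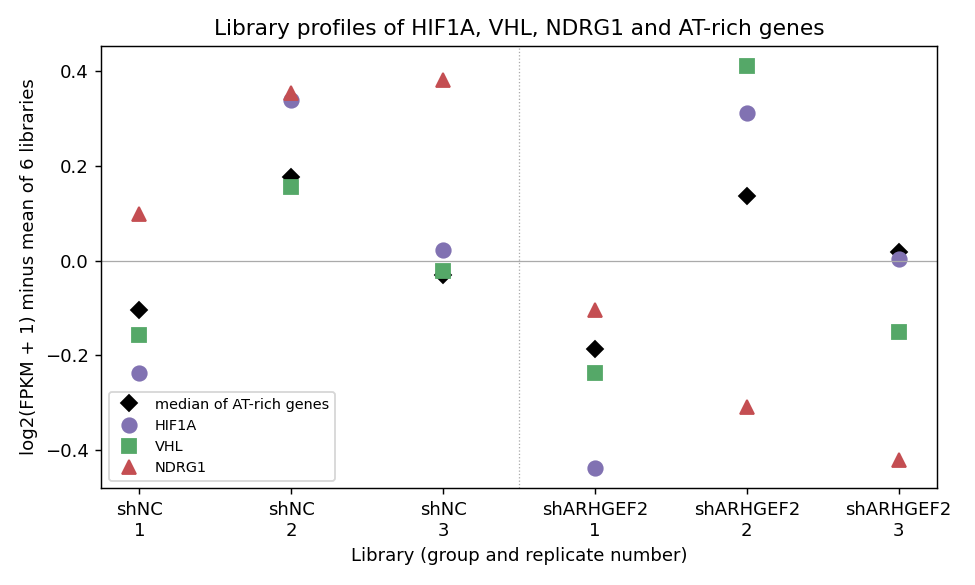
Level of HIF1A, VHL and NDRG1 and the median of AT-rich genes (those with at most 43.9% GC) in each library (horizontal axis), as log2(FPKM + 1) minus the mean of the 6 libraries (vertical axis). HIF1A and the AT-rich genes are highest in the replicates numbered 2 and lowest in those numbered 1, while NDRG1 is above 0 in all 3 shNC libraries and below 0 in all 3 shARHGEF2 libraries.

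EPAS1 (ENSG00000116016, chromosome 2, 46293667 to 46386703, plus strand) encodes the second alpha subunit, HIF2 alpha in common usage. It had 21.2, 27.8 and 25.5 FPKM in shNC replicates 1 to 3 and 23.7, 24.7 and 23.2 FPKM in shARHGEF2 replicates 1 to 3. All 3 shARHGEF2 values lay inside the range of the shNC values. The log2 fold change was -0.05 (standard error 0.11, 95% interval -0.31 to 0.21, adjusted p = 0.898 in limma), and it was 0.033 without shNC replicate 2. EPAS1 had the higher level of the pair in every library, with a ratio of HIF1A to EPAS1 between 0.588 and 0.975 over the 6 libraries.

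The hydroxylases and VHL followed. VHL (ENSG00000134086, chromosome 3, 10141008 to 10152220, plus strand), the substrate receptor of the ubiquitin ligase for the alpha subunits, ranged from 7.97 to 10.1 FPKM in shNC and from 7.49 to 12.3 FPKM in shARHGEF2 cells. The highest value belonged to shARHGEF2 replicate 2. The fitted log2 difference of VHL, 0.02 with a standard error of 0.18 (95% interval -0.39 to 0.42, adjusted p = 0.987 in limma), turned to -0.06 without shNC replicate 1 and to -0.19 without shARHGEF2 replicate 2. EGLN1 (ENSG00000135766, chromosome 1, 231363751 to 231425044, minus strand), the main prolyl hydroxylase of most cells, varied little, with 7.10 to 8.37 FPKM in shNC and 7.06 to 7.72 FPKM in shARHGEF2 cells. For EGLN1 the fitted log2 difference was -0.07 (standard error 0.11, 95% interval -0.31 to 0.17, adjusted p = 0.844 in limma).

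EGLN3 (ENSG00000129521, chromosome 14, 33924231 to 34462774, minus strand) is both a prolyl hydroxylase and a HIF target. It had 3.62, 3.15 and 2.18 FPKM in shNC replicates 1 to 3 and 1.80, 2.21 and 2.64 FPKM in shARHGEF2 replicates 1 to 3. The groups overlapped through shNC replicate 3, which lay below 2 of the shARHGEF2 libraries. SPTSSA overlaps the span of EGLN3 on the same strand, with 18.3 to 22.5 FPKM in shNC and 18.7 to 23.4 FPKM in shARHGEF2 cells. Whether reads of the 2 genes were kept apart was not tested. The log2 fold change of EGLN3 was -0.30 (standard error 0.17, 95% interval -0.68 to 0.09, adjusted p = 0.481 in limma), and it was -0.45 without shNC replicate 3, -0.18 without shNC replicate 1 and -0.20 without shARHGEF2 replicate 1.

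NDRG1 (ENSG00000104419, chromosome 8, 133237171 to 133302022, minus strand), a stress-responsive gene induced by hypoxia and linked to differentiation, was the most abundant of the 10 genes in every library. It had 47.8, 57.3 and 58.4 FPKM in shNC replicates 1 to 3 and 41.4, 35.9 and 33.1 FPKM in shARHGEF2 replicates 1 to 3. The lowest shNC library stood above the highest shARHGEF2 library. The means of 54.5 ± 5.80 and 36.8 ± 4.23 FPKM (SD, n = 3 each) gave a ratio of 0.675. The log2 fold change was -0.55 (standard error 0.12, 95% interval -0.82 to -0.29), with an unadjusted p of 0.00119 and an adjusted p of 0.117 in limma. In the two-sided exact permutation test the p was 0.1, which is the smallest that 3 libraries against 3 allow.

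ANKRD37 (ENSG00000186352, chromosome 4, 185396021 to 185400628, plus strand) encodes a small ankyrin-repeat protein whose gene is known as a HIF target. It had 1.58, 1.302 and 1.43 FPKM in shNC replicates 1 to 3 and 0.563, 0.730 and 0.815 FPKM in shARHGEF2 replicates 1 to 3. All 3 shARHGEF2 libraries were under 1 FPKM and all 3 shNC libraries over it. The ratio of the means, 1.44 ± 0.137 and 0.703 ± 0.128 FPKM (SD, n = 3 each), was 0.489, the smallest of the 10 genes. Its log2 fold change was -0.52 (standard error 0.11, 95% interval -0.78 to -0.26, adjusted p = 0.120 in limma), and with a pseudocount of 0.1 in place of 1 it was -0.95. At the median length of its listed transcripts, 668 nt, these levels correspond to roughly 19.3 to 24.6 read pairs in shNC and 7.69 to 12.6 in shARHGEF2 libraries. UFSP2 overlaps ANKRD37 on the opposite strand and had 0.676 to 1.29 FPKM in shNC and 0.550 to 0.804 FPKM in shARHGEF2 cells. Whether counting used the strand is not given in the sources used here, so reads of the pair may not be separated.

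ADM (ENSG00000148926, chromosome 11, 10304680 to 10307397, plus strand) encodes the precursor of adrenomedullin, a secreted vasodilator peptide. Within each group, its values had the smallest spread relative to the group mean among the 5 targets from NDRG1 to KDM3A. They were 12.9, 14.0 and 13.9 FPKM in shNC replicates 1 to 3 and 10.3, 9.82 and 9.64 FPKM in shARHGEF2 replicates 1 to 3. The gap between the groups was wider than the range within either group. The means were 13.6 ± 0.597 and 9.91 ± 0.323 FPKM (SD, n = 3 each), so ADM was 27.2% lower in shARHGEF2 cells. The log2 fold change was -0.42 (standard error 0.09, 95% interval -0.64 to -0.21), with an unadjusted p of 0.00174 and an adjusted p of 0.126 in limma. Of the genes for its receptors, CALCRL, RAMP1 and RAMP2 did not exceed 0.201 FPKM in any library, and RAMP3 was looked up by symbol and not found. ADM2, which encodes a related peptide, did not overlap in the other direction, with 1.496 to 1.85 FPKM in shNC and 2.09 to 2.27 FPKM in shARHGEF2 cells (log2 fold change 0.24, adjusted p = 0.399 in limma).

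BNIP3 (ENSG00000176171, chromosome 10, 131966455 to 131982013, minus strand) encodes a receptor on the outer mitochondrial membrane that directs mitochondria to autophagy. It had 15.7, 18.5 and 17.0 FPKM in shNC replicates 1 to 3 and 12.6, 15.4 and 13.03 FPKM in shARHGEF2 replicates 1 to 3. The groups were divided narrowly, between shNC replicate 1 and shARHGEF2 replicate 2. The log2 fold change was -0.30 (standard error 0.11, 95% interval -0.56 to -0.05), with an unadjusted p of 0.0258 and an adjusted p of 0.290 in limma. Its paralogue BNIP3L, a mitophagy receptor of the same family, overlapped between the groups at 6.74 to 9.32 and 5.81 to 8.36 FPKM (log2 fold change -0.15, adjusted p = 0.758 in limma).

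KDM3A (ENSG00000115548, chromosome 2, 86440647 to 86492716, plus strand), an oxygen-dependent demethylase of lysine on histone H3, was near the filter on low values. It ranged from 0.587 to 1.01 FPKM in shNC and from 0.459 to 1.01 FPKM in shARHGEF2 cells, so that the groups overlapped almost completely. The log2 fold change was -0.10 (standard error 0.15, 95% interval -0.45 to 0.24, adjusted p = 0.832 in limma), and 0.010 without shARHGEF2 replicate 1. Its paralogue KDM3B had 4.68 to 6.21 FPKM in shNC and 5.03 to 5.50 FPKM in shARHGEF2 cells (log2 fold change -0.04, adjusted p = 0.925 in limma).

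**Figure D3:**
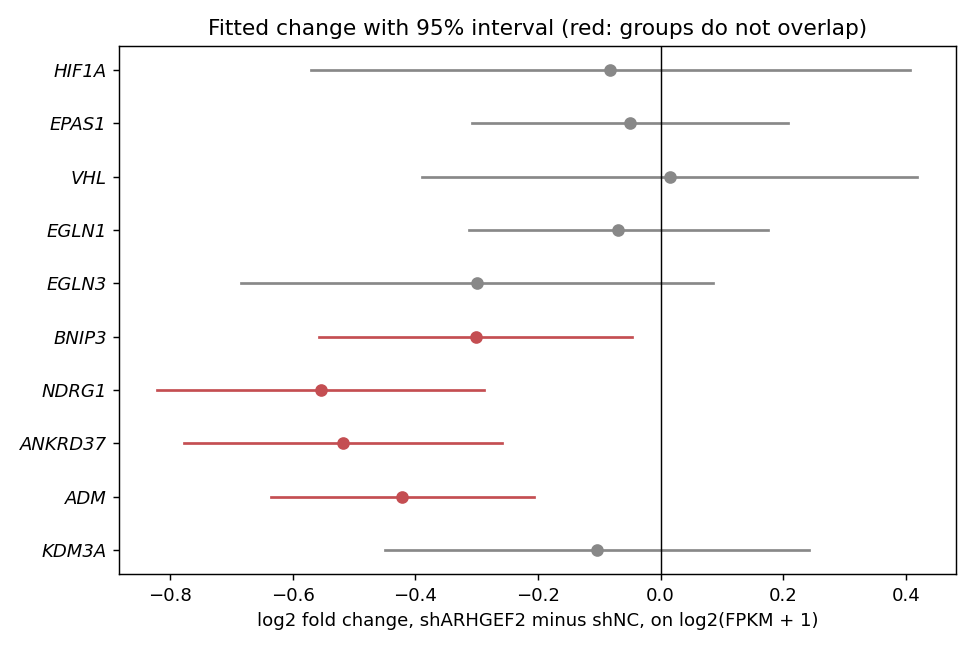
Fitted log2 fold change of each gene (horizontal axis, shARHGEF2 minus shNC on log2(FPKM + 1)) with its 95% interval from limma, without adjustment for the number of genes. The 4 genes in red, from BNIP3 at -0.30 to NDRG1 at -0.55, have groups that do not overlap and intervals under 0, and the intervals of the 6 genes in grey include 0.

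In shNC cells the order of the mean levels per length was NDRG1, EPAS1, HIF1A, BNIP3, ADM, VHL, EGLN1, EGLN3, ANKRD37 and KDM3A. Neighbours whose library ranges overlapped were EPAS1 with HIF1A, HIF1A with BNIP3, and VHL with EGLN1. In shARHGEF2 cells the first 8 genes kept this order, while KDM3A and ANKRD37 overlapped at means of 0.724 and 0.703 FPKM. ADM, which stood above the VHL range in shNC cells, overlapped with VHL in shARHGEF2 cells.

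The genes most like the 3 most variable of the 10 were sought among 5449 tested genes averaging 5 FPKM or more, by the root mean square difference of the log2 levels over the 6 libraries, each taken relative to its own mean. For HIF1A they were GNG12 (0.02), TMEM123 (0.04) and PPP1CB (0.04), whose transcripts average 39.9%, 38.9% and 43.0% GC. For NDRG1 the nearest was EIF4A1 at 0.06, followed by MEGF6 (0.10) and SLC29A2 (0.11). EIF4A1 shares sequence with the readthrough gene SENP3-EIF4A1, so its own level is uncertain. For ANKRD37 they were TMEM14C (0.04), the pseudogene RPL41P5 (0.05) and HGH1 (0.05), where the level of a pseudogene may include reads of its parent gene. The 6 neighbours of NDRG1 and ANKRD37 were selected for likeness to genes whose groups separate, so their lower levels in shARHGEF2 libraries follow from the selection and are no result.

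The rest of the pathway was described by lists. Of 18 genes of the HIF machinery, covering partners, hydroxylases, ligase subunits, coactivators and stability factors, 17 were tested and 0 were called in limma. Changes were above 0 for 6 and below 0 for 11, with a median of -0.01. At an unadjusted p under 0.05, 1 gene passed, beside 13.7% of all genes tested. It was ARNT2, which encodes a partner of the alpha subunits found mainly in neural tissue, and it had 4.40, 4.55 and 5.95 FPKM in shNC replicates 1 to 3 and 7.78, 7.71 and 8.56 FPKM in shARHGEF2 replicates 1 to 3. The groups of ARNT2 did not overlap (log2 fold change 0.60, standard error 0.13, adjusted p = 0.117 in limma). The next by p were CREBBP, a coactivator, at 1.96 ± 0.365 and 1.40 ± 0.356 FPKM (SD, n = 3 each, adjusted p = 0.420 in limma), and CITED2, which competes with HIF for that coactivator, at 12.3 ± 0.1003 and 13.7 ± 0.888 FPKM (SD, n = 3 each, adjusted p = 0.577 in limma). ARNT, the usual partner, overlapped at 6.89 to 8.12 and 6.85 to 9.14 FPKM. HIF3A did not exceed 0.0108 FPKM and was not tested.

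Of 30 other HIF targets outside glycolysis, all tested, 12 had changes above 0 and 18 below, with a median of -0.08. limma called 3 of the 30, all lower in shARHGEF2 cells, beside 0.0814% of all genes tested that were called lower. This list and the others were chosen with earlier results of these data known, so such shares are descriptions and no test of the list. HILPDA, which encodes a lipid droplet protein, fell from 11.3 ± 0.410 to 5.41 ± 0.863 FPKM (SD, n = 3 each, log2 fold change -0.95, adjusted p = 0.0302 in limma). CA9, a membrane carbonic anhydrase used as a marker of hypoxia, fell from 203 ± 5.48 to 134 ± 2.56 FPKM (SD, n = 3 each, log2 fold change -0.60, adjusted p = 0.0302 in limma). DDIT4, an inhibitor of mTORC1 signaling that other stresses induce as well, had 242, 248 and 213 FPKM in shNC replicates 1 to 3 and 154, 155 and 155 FPKM in shARHGEF2 replicates 1 to 3. It fell by 0.60 on the log2 scale (standard error 0.09, adjusted p = 0.0395 in limma). With 1 library left out, HILPDA was called without shNC replicate 3 or shARHGEF2 replicate 1 and not in the other 4 fits (adjusted p up to 0.116 in limma), and CA9 and DDIT4 were called without shNC replicate 3 and not in the other 5 (adjusted p up to 0.0876 and 0.1299 in limma). All 3 calls were also lost with the replicate number as a block, with no filter on low values and without trend and robust variances, and DDIT4 was lost with quantile normalization (adjusted p = 0.0607 in limma) and with the GC trend removed (adjusted p = 0.0519 in limma).

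Not all targets lay lower. At an unadjusted p under 0.05, 6 of the 30 passed as lower and 4 as higher, beside 5.55% and 8.1% of all genes tested. These 4 were named after their values were seen: BHLHE40, a transcriptional repressor (log2 fold change 0.54), JMJD6, an oxygenase (0.46), ERO1A, an oxidase of the endoplasmic reticulum (0.33), and EFNA1, a membrane-bound ligand of EPH receptors (0.27). Their adjusted p lay between 0.152 and 0.356 in limma. The groups did not overlap in BHLHE40, with 66.4, 71.2 and 97.3 FPKM in shNC replicates 1 to 3 and 110, 120 and 109 FPKM in shARHGEF2 replicates 1 to 3. VEGFA, the angiogenic ligand and a well-known HIF target, was named after its values were seen as well and had 8.75 ± 1.08 and 8.71 ± 0.581 FPKM (SD, n = 3 each, log2 fold change 0.00, adjusted p = 0.999 in limma).

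**Figure D4:**
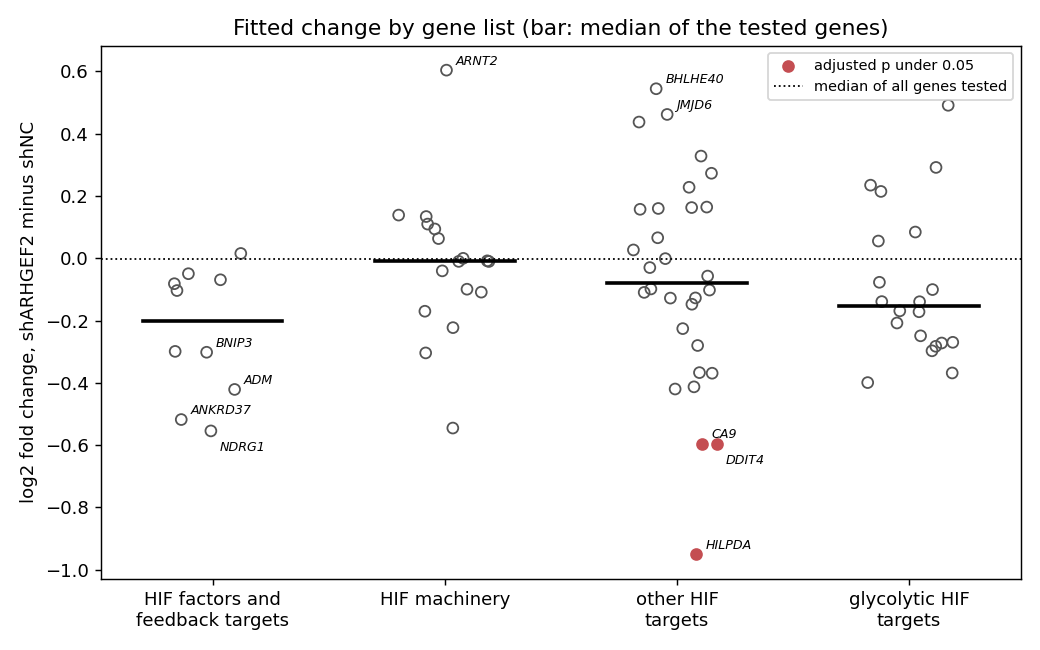
Fitted log2 fold changes (vertical axis, shARHGEF2 minus shNC) of the tested genes of 4 lists, with a bar for the median of each list, filled points for genes called in limma and a dotted line for the median of all genes tested. The called genes are HILPDA, CA9 and DDIT4, and the medians run from -0.20 for the HIF factors and feedback targets to -0.01 for the machinery.

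Of 20 glycolytic HIF targets, limma called 0, and at an unadjusted p under 0.05, 5 were lower and 2 higher. Over all genes tested, 0.277% were called, and 5.55% were lower and 8.1% higher at that unadjusted p. The median of the glycolytic list was -0.15, with 14 of 20 genes below 0. Of 13 paralogues and adrenomedullin receptor genes, 12 were found and 6 tested. Of those 6, limma called 0, and 0 had an unadjusted p under 0.05, beside 0.277% and 13.7% of all genes tested. A list from the annotation column of the table, the KEGG HIF-1 signaling pathway, was added after the data were seen. Of its 72 tested genes 0 were called in limma, 6 had an unadjusted p under 0.05, and the median was -0.01, beside the same 0.277% and 13.7% of all genes tested.

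**Figure D5:**
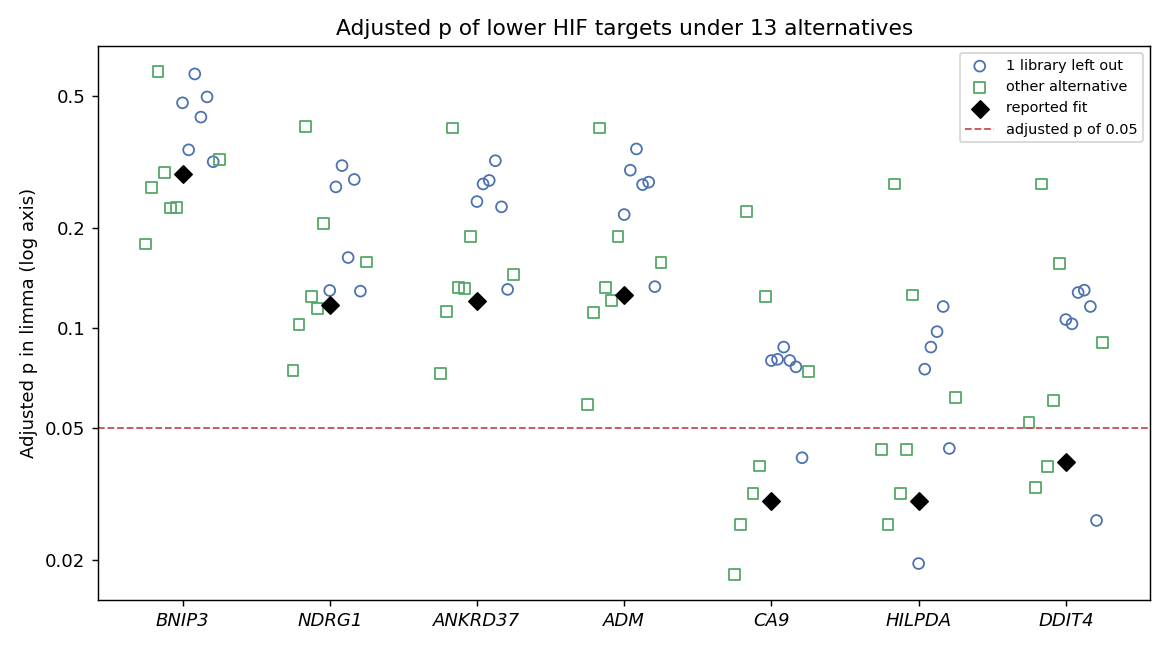
Adjusted p in limma (vertical log axis) of the 4 separated targets and of CA9, HILPDA and DDIT4 in the reported fit (diamonds), with 1 library left out (circles) and under the other alternatives (squares). BNIP3, NDRG1, ANKRD37 and ADM stay above the line at 0.05 throughout, and CA9, HILPDA and DDIT4 lie on both sides of it.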

How the data were processed

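Poly(A) RNA libraries of 6 HepG2 samples were sequenced as pairs, with strand marking and molecular identifiers. The authors deposited 1 table of FPKM per gene and library, and the submitters' processing notes name cutadapt 1.9, HISAT2 2.0.4, UMI-tools and StringTie 1.3.4d with build hg19. The annotation and strand setting are not given in the sources used here. The table holds no coordinates, so positions were taken by gene identifier from GENCODE 29 on GRCh38. Further columns hold the authors' own fold changes and p-values, which were not used.

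Groups and replicate numbers came from the sample titles. limma 3.58.1 (R 4.3.3, trended and robust variances, statmod 1.5.0) was run on log2(FPKM + 1) for genes averaging 0.5 FPKM or more over the libraries, with Benjamini-Hochberg adjustment over all genes tested. Levels of single genes were also compared by two-sided exact permutation tests over libraries (SciPy 1.17.1). The method was tested on simulated data, where it called most of the larger fold changes but none of those about as large as the changes of NDRG1 and ANKRD37. The lack of a call for such genes thus does not show that they did not differ. The simulated data had few changed genes and independent spread, so the share called there need not hold here. In the real data CA9 and DDIT4 were called at log2 fold changes of -0.60. Depth was estimated from the steps in FPKM times length of single-transcript genes (600 nt or longer), searched from 17000000 to 26000000 pairs, where 34.7% to 35.9% of low values lay within 0.1 of a whole pair, against 20% by chance. Since most values were not whole, no count test was run, and intervals for single levels were not computed.

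The genes named are the 10 members, ARHGEF2, called genes of the lists, the 3 genes with the smallest p of the machinery and of the other targets, and the genes most like the 3 most variable members. UFSP2, ADM2, BNIP3L, KDM3B, ARNT, HIF3A, VEGFA, BHLHE40, JMJD6, ERO1A, EFNA1 and the receptor genes fall outside this rule, as do the cell type markers, which have lists of their own. The members and lists were chosen with earlier results of these data known. The fit was repeated with the replicate number as a block, with 0.1 in place of 1 as pseudocount, without a filter on low values, with a stricter filter (1 FPKM or more in at least 3 libraries), after quantile normalization, with ordinary variances in limma, leaving out each library, and, added after seeing the data, removal of a GC trend by loess (span 0.3). Python 3.11.15 was used with pandas 2.3.3, while numpy was 2.4.6 and matplotlib 3.10.9.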

Additional observations from a re-analysis of the deposited data

How the results depend on the processing

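Over 13 alternatives, the fitted changes of the 10 genes kept their sign in 123 of 129 values, and limma called 0 of the 10 in each alternative. With the replicate block, either change of filter or ordinary variances, the fitted change stays the same by construction. Those signs could not turn, so the share of kept signs overstates how far the sign was put to a test. The 6 values with the other sign came from leaving out 1 library: HIF1A (0.07 without shNC replicate 2, 0.12 without shARHGEF2 replicate 1), EPAS1 (0.033 without shNC replicate 2), VHL (-0.06 without shNC replicate 1, -0.19 without shARHGEF2 replicate 2) and KDM3A (0.010 without shARHGEF2 replicate 1). With 1 library left out, the ranges were -0.26 to 0.12 for HIF1A, -0.15 to 0.033 for EPAS1, -0.19 to 0.14 for VHL and -0.22 to 0.010 for KDM3A. KDM3A was not tested with the stricter filter. The count of the 10 genes at an unadjusted p under 0.05, 4 as reported, was 3 without shNC replicate 2, shARHGEF2 replicate 1 or shARHGEF2 replicate 3, and 4 in the other 10 alternatives. The lowest adjusted p of NDRG1, ANKRD37, ADM and BNIP3 in limma were 0.0747, 0.0731, 0.0588 and 0.179, each with the GC trend removed, and the highest were 0.404, 0.399, 0.399 and 0.592, each with no filter. The number of all genes called, 34, was 0 with the replicate block (1976 at an unadjusted p under 0.05), 1 with no filter, 54 with at least 1 FPKM in 3 or more libraries, 19 with quantile normalization and 7 without trend and robust variances. With 1 library left out it ranged from 6 without shARHGEF2 replicate 3 to 102 without shNC replicate 3. Of the 30 other HIF targets, 3 were called in the reported fit, 0 with the block, 0 with no filter and 0 without trend and robust variances, and between 0 and 4 with 1 library left out (4 without shNC replicate 3, 1 without shARHGEF2 replicate 1 and 0 in the other 4 fits). Fits with 1 library left out use fewer samples, and the cause of the other shifts was not tested. The labels do not say that a replicate number marks a shared culture or batch, and deviations of same-numbered libraries correlated at 0.184, 0.159 and -0.105, so the numbers were not taken to pair the libraries. Libraries numbered 1 and 2 correlated best with their own number and those numbered 3 did not, and with the block the standard error of HIF1A was 0.088 in place of 0.21. Depth limits ANKRD37 most, at an estimated 7.69 read pairs in its lowest library.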
